A study of Mus musculus with 9 samples.

Results

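The genes described here were lower after 1 h of B/B than in control cells, and lower again after the washout that followed. They were chosen by measured values. A gene entered when its probe set carried 1 gene symbol (names of small RNA, Zfp, Rpl and Rps genes left out) and averaged 5 or more in control on the log2 scale. Its mean also had to be at least 0.2 lower at B/B 1 h than in control, and at least 0.2 lower again in washout than at B/B 1 h. Of 22180 genes, 98 met the rule, out of 11009 that met its conditions on symbol and control level. Hes1, Bhlhe40, Klf10, Adm, Actg2 and Ddit4 also met it, and the rule leaves them out by name.

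RNA came from hMLKL1-181-2Fv-NIH3T3 cells, a mouse fibroblast line that carries part of human MLKL joined to Fv domains, and each of 3 groups had 3 arrays. MLKL is the pseudokinase that breaches the cell surface during necroptosis, and B/B is a ligand that pulls Fv domains together. Control cells had no B/B. The second group had 50 nM B/B for 1 h and was sorted for annexin V (AnnV+), a probe for phosphatidylserine on the outer face of the membrane. The third group had the same B/B and sort and then 6 h of washout at 3000 nM, with an agent that the labels do not name. Nothing in the labels tells if the control cells were sorted or how long they were cultured, so B/B, sorting and time of harvest cannot be told apart. Nor do they say whether arrays of a group came from separate cultures, so a spread between arrays may be technical.

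By roles given with the values known, 13 of the 98 encode secreted or matrix proteins, 12 transcriptional regulators and 9 signalling, stress or innate immune regulators, and 21 were given no role. Id proteins are helix-loop-helix proteins without a DNA-binding region, which hold basic helix-loop-helix factors off DNA, and bone morphogenetic protein (BMP) signals switch their genes on in fibroblasts. Nab2 binds early growth response (EGR) factors and represses their targets, Gadd45b activates stress kinases, Socs3 restrains cytokine signalling, and the mRNAs of such inducible genes are often short-lived. Myosin light chains, alpha-actin and lysyl oxidases serve the other side of fibroblast life, contraction and the building of extracellular matrix. A lower mRNA level can come from less transcription or faster decay, and the arrays measure neither.

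The promoters of Slc1a3, Myl9, Id2 and Ogn are shown because these are the 4 genes with the lowest washout minus control level that have an entry in the promoter table used, RefSeq on GRCm38.p6. Each runs from 250 bases before to 50 after the annotated start, 5' to 3' on the gene's strand. Capitals mark matches, on either strand, to the 10 motifs searched: TATAAA, bound by the TATA-binding protein; the nuclear factor Y element CCAAT; the Sp factor element GGGCGG; the E-box CACGTG; the cAMP response element TGACGTCA; the AP-1 element TGANTCA; the shorter cAMP response element TGACG, which also lies within TGACGTCA; the TEAD element CATTCC; the Notch effector element TGGGAA; and the SMAD element GTCTAGAC.
Slc1a3 (chr15:8710758-8711057, minus strand): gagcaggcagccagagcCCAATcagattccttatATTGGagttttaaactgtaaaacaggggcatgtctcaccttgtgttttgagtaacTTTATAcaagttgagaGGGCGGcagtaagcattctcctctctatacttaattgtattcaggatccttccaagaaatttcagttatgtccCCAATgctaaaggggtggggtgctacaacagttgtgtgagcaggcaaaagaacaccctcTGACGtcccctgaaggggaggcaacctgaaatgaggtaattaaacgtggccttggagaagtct
Myl9 (chr2:156775214-156775513, plus strand): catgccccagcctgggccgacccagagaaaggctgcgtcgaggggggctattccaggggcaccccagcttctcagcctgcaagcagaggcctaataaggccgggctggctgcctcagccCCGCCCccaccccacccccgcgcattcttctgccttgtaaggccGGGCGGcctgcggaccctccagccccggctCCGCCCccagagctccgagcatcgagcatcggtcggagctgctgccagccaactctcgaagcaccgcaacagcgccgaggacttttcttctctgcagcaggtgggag
Id2 (chr12:25096043-25096342, minus strand): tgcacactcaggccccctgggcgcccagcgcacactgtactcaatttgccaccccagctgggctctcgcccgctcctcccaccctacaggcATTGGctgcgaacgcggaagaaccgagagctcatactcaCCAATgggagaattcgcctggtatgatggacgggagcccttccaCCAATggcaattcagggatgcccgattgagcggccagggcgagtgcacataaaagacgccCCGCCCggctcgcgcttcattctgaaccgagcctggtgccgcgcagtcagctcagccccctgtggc
Ogn (chr13:49607765-49608064, plus strand): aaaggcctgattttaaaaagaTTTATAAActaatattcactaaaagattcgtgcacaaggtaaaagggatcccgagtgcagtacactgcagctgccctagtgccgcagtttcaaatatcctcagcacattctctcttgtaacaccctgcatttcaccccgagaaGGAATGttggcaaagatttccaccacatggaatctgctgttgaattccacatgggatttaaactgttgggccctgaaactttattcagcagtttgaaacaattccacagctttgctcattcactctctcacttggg
The Slc1a3 promoter held 1 match to TATAAA, 3 to CCAAT and 1 to GGGCGG, and that of Ogn held 2 to TATAAA. The 2 in Ogn overlap on opposite strands, near the upstream end of the window. The TATAAA match in Slc1a3 also lies well before the start. Neither the Myl9 nor the Id2 window held TATAAA, while 3 matches to GGGCGG lay in Myl9 and 3 to CCAAT in Id2. A match is a string of letters in this window and was not measured as a binding site.

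As a whole the genes moved in 2 steps of unlike size. The median gene was 0.26 lower at B/B 1 h than in control and 0.41 lower in washout than at B/B 1 h, on the log2 scale, and 0.71 lower in washout than in control. Over all 11009 genes that met the conditions on symbol and control level the same medians were -0.03, 0.01 and 0.01. By array, the median gene stood at -0.03, -0.01 and 0.05 from its control mean on the control arrays, at -0.30, -0.25 and -0.24 on the B/B 1 h arrays and at -0.73, -0.71 and -0.66 on the washout arrays. The 3 groups of arrays did not overlap in this median. The rule fixes the direction of these values, so they describe its members and test nothing.

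**Figure D1:**
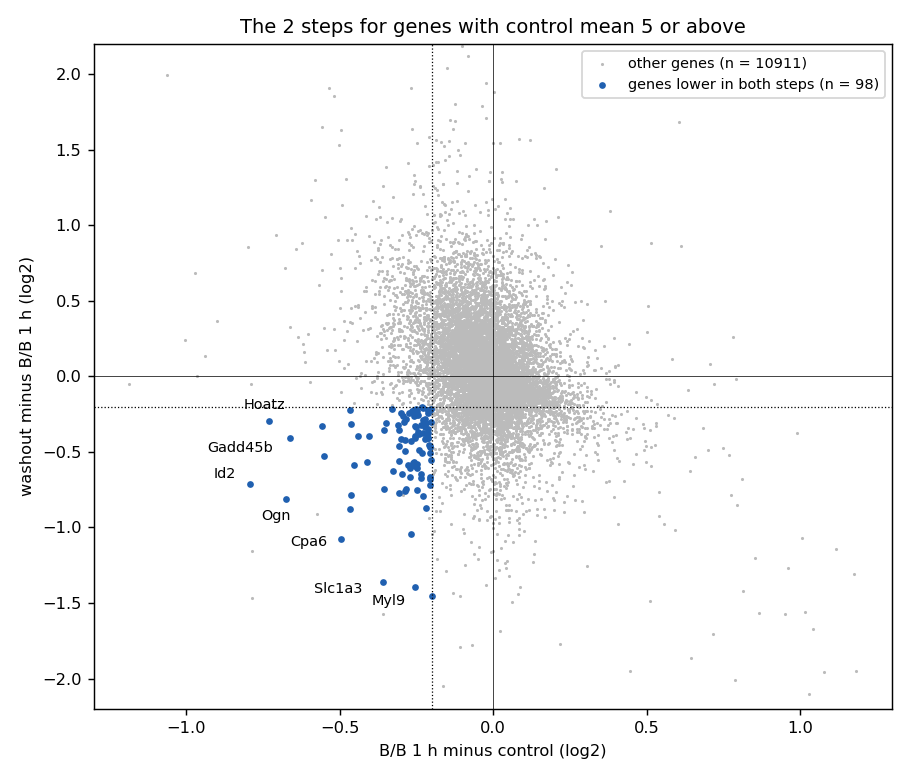
Each point is a gene with a control mean of 5 or above, placed by its B/B 1 h minus control level (horizontal axis, log2) and its washout minus B/B 1 h level (vertical axis, log2). Blue points are the 98 genes lower in both steps, grey points the other 10911 genes, and dotted lines the 2 limits of the rule; 25 genes lie outside the axes. Most blue points sit close to the vertical dotted line, and their median on the vertical axis is -0.41. Id2, at -0.79 and -0.71, lies farthest from that line, and Myl9, at -0.26 and -1.39, is among the lowest points.

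Of 878 genes at least 0.2 lower at B/B 1 h, 104 were at least 0.2 lower again in washout, the 6 named exceptions included, and 508 were at least 0.2 higher in washout than at B/B 1 h. Of all 11009 genes that met the conditions on symbol and control level, 2080 were at least 0.2 lower over washout and 3042 at least 0.2 higher. The share lower again was thus below that of all these genes, and the share higher was above it. Both steps use the B/B 1 h arrays, with opposite signs, so these counts are not independent of each other. Among the 98, the B/B 1 h difference lay between 0.2 and 0.3 for 71 genes and reached 0.5 for 6, namely Id2, Hoatz, Ogn, Gadd45b, Id1 and Nab2. The larger of the 2 steps came over washout in 76 genes and at 1 h in 22. Over all 11009 genes the quartiles were -0.10 and 0.05 at 1 h and -0.14 and 0.23 over washout. Differences over washout were thus wider among all these genes too, and a larger second step is not particular to the 98. The share of the whole log2 difference present at 1 h had a median of 39.4% and reached 71.1% in Hoatz. The rule asks at least 0.2 of each step, which bounds this share. A gene with a small whole difference must have near-equal steps, and a low or high share is open only to larger differences. The lowest shares were 12.1% in Trav9d-3 and 15.5% in Myl9. That of Trav9d-3 rests on a B/B 1 h minus control level of -0.20, which was -0.089 without the third control array. In washout 69 genes were at 1.5-fold or more below control and 19 at 2-fold or more.

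Counts of calls follow from the rule and nothing is read from them. In the fit by limma across all genes with Benjamini-Hochberg adjustment, 45 of the 98 were called lower at B/B 1 h than in control (1.88% of all genes tested were). That count was 12 to 28 when 1 array was left out and 27 after quantile normalization. Between washout and B/B 1 h, 89 were called lower (12% of all genes), and between washout and control 97 were (11.7% of all genes). Arrays of the 2 groups did not overlap in 86 genes at B/B 1 h against control (12.3% of all genes), in 90 for washout against B/B 1 h (18.4%) and in 97 for washout against control (17.8%). In 80 genes all 9 arrays stood in falling order, control above B/B 1 h above washout, which held for 2.39% of all genes. The other 18 had at least 1 array out of order. Atp5g1, a subunit of mitochondrial ATP synthase, was the exception in washout against control, with control levels of 4.47, 5.16 and 5.53 that reached below those of B/B 1 h (4.81, 4.94 and 4.77) and into those of washout (4.87, 4.40 and 4.58).

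**Figure D2:**
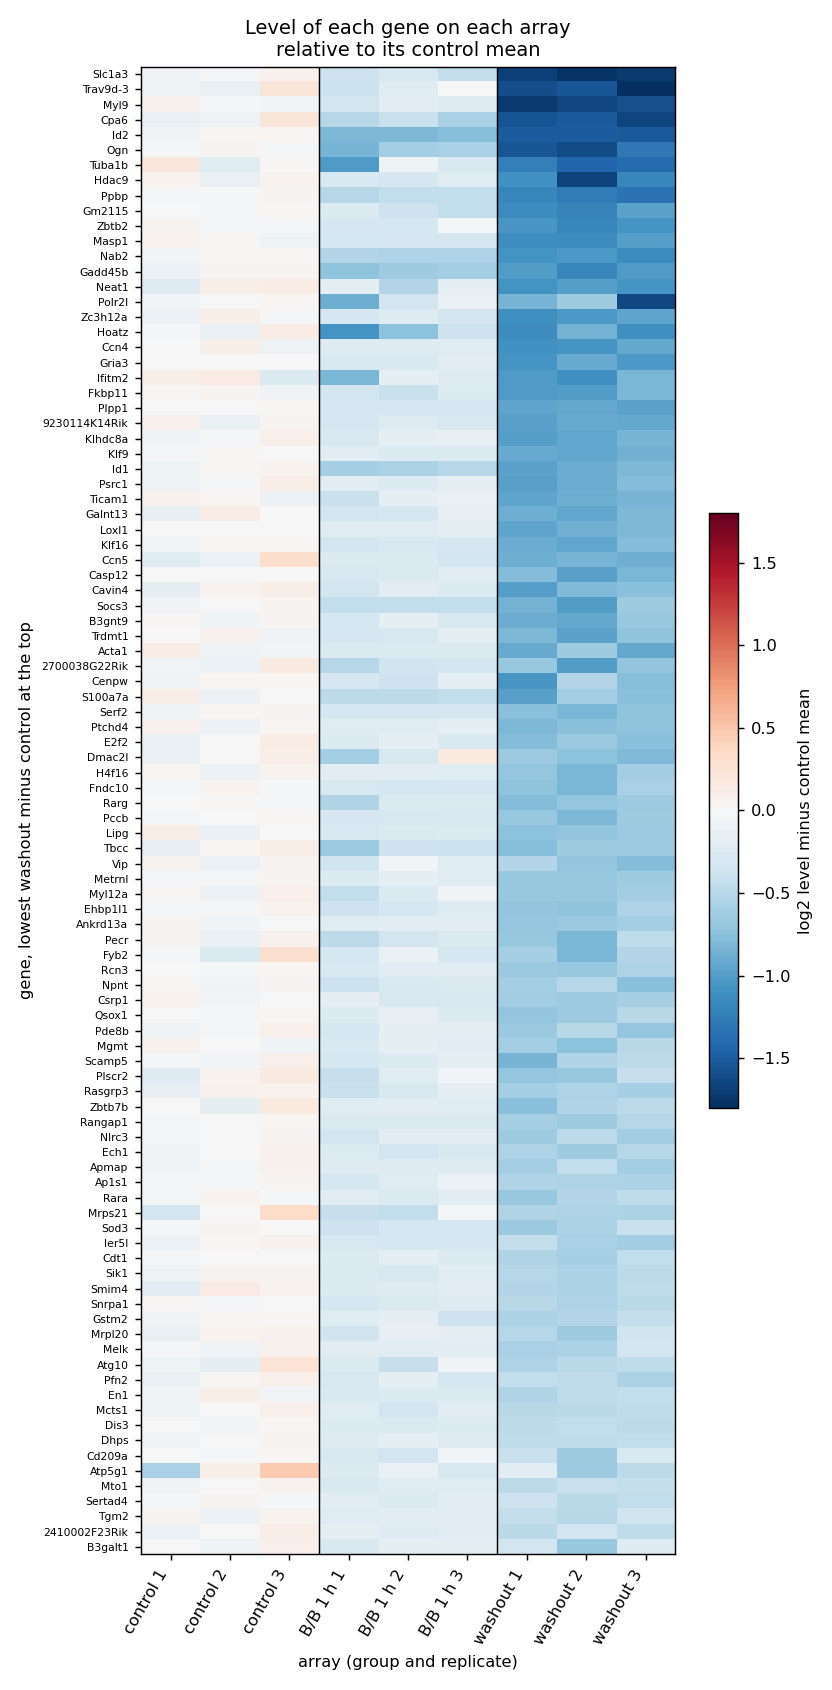
Rows are the 98 genes, from the lowest washout minus control level at the top, and columns the 9 arrays by group, numbered in deposit order; colour is the log2 level minus the gene's control mean. The B/B 1 h columns are pale blue for most genes and deeper for Id2, Hoatz, Ogn and Gadd45b, and the washout columns are the darkest, down to -1.72 for the mean of Slc1a3.

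Among 12 transcriptional regulators, the washout minus control level ran from -1.50 to -0.48 with a median of -0.88. Id2 led them and had the largest step at 1 h of all 98 genes. Its log2 levels were 10.30, 10.40 and 10.41 on the control arrays, 9.57, 9.56 and 9.61 on the B/B 1 h arrays and 8.87, 8.87 and 8.86 on the washout arrays. For Id2, washout stood 2.83-fold below control, in close to equal parts in the 2 steps (-0.79 and -0.71). Id1, its relative, had 8.16, 8.27 and 8.31 in control, 7.65, 7.68 and 7.73 at B/B 1 h and 7.29, 7.35 and 7.43 in washout. More of its difference, 62.8%, was present at 1 h. Nab2 was measured at 10.68, 10.74 and 10.74 in control, 10.19, 10.16 and 10.16 at B/B 1 h and 9.64, 9.69 and 9.59 in washout. Its 2 steps were near equal (-0.55 and -0.53), and a second probe set of Nab2, at a control mean of 7.47, gave -0.44 and -0.67.

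Hdac9 and Zbtb2 differed from these by their timing. Hdac9, a class IIa histone deacetylase that works as a co-repressor, had 6.66, 6.48 and 6.67 in control, 6.33, 6.30 and 6.38 at B/B 1 h and 5.51, 4.94 and 5.43 in washout. Only 20.3% of its difference was present at 1 h. Zbtb2, a zinc finger factor with a BTB domain, had 7.87, 7.80 and 7.80 in control, 7.52, 7.51 and 7.79 at B/B 1 h and 6.78, 6.66 and 6.77 in washout. Among the B/B 1 h arrays the third lay just below the lowest control array, and all washout arrays were far below. The Kruppel-like factors Klf9 and Klf16 stood at -0.90 and -0.87 in washout against control, with -0.23 and -0.31 at B/B 1 h. The retinoic acid receptors Rarg and Rara stood at -0.71 and -0.56, and the cell cycle factor E2f2 at -0.74. Zbtb7b (-0.59) and the homeobox factor En1 (-0.48) closed the group.

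Signalling, stress and innate immune regulators numbered 9, with washout minus control levels of -1.06 to -0.52 and a median of -0.83. Gadd45b, which binds and activates a kinase of the p38 and JNK pathways, led them. It had 10.34, 10.49 and 10.50 in control, 9.73, 9.80 and 9.83 at B/B 1 h and 9.44, 9.28 and 9.43 in washout, so that 62.0% of the difference was present at 1 h. Zc3h12a encodes Regnase-1, an endonuclease that cuts mRNAs of inflammatory genes. Its levels were 7.99, 8.22 and 8.07 in control, 7.79, 7.86 and 7.77 at B/B 1 h and 6.99, 7.06 and 7.14 in washout, with the larger step over washout. Socs3, a feedback inhibitor of JAK-STAT signalling, had 8.44, 8.51 and 8.55 in control, the same value of 8.06 on all 3 B/B 1 h arrays, and 7.65, 7.50 and 7.85 in washout. Equal values on arrays of a group also occurred elsewhere, on at least 2 arrays of a group in 18 of the 98 genes and in 19.8% of the genes that met the conditions on symbol and control level, so that the spread of such genes is no measure of error.

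Ticam1, Nlrc3 and Casp12 belong to innate immunity and cell death. Ticam1, known as TRIF, is the adaptor of Toll-like receptor 3 and can engage RIPK3 in necroptosis; it had 7.15, 7.11 and 6.98 in control, 6.69, 6.90 and 6.95 at B/B 1 h and 6.14, 6.20 and 6.25 in washout. Casp12, a caspase at the endoplasmic reticulum, was dim, with 5.27, 5.25 and 5.26 in control, 4.96, 5.004 and 5.05 at B/B 1 h and 4.48, 4.28 and 4.44 in washout. Nlrc3, a restraint on innate signalling, stood at -0.58 in washout against control. Rasgrp3, an exchange factor for Ras, was also dim and stood at -0.59, the cAMP phosphodiesterase Pde8b at -0.62 and the salt-inducible kinase Sik1 at -0.52. Rasgrp3 and Casp12 are among 7 genes whose washout mean was below 5.

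**Figure D3:**
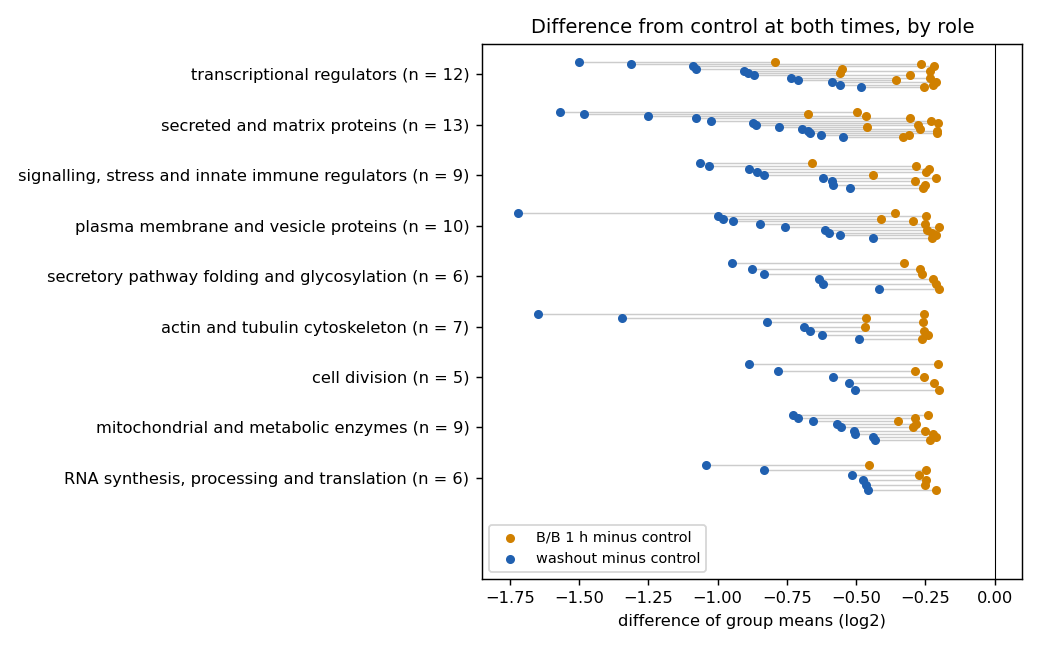
Each line is a gene, placed in 1 of 9 roles; the horizontal axis is the log2 difference from the control mean, with the B/B 1 h minus control level in orange and the washout minus control level in blue. Blue points reach beyond -1.25 in transcriptional regulators, secreted and matrix proteins, plasma membrane proteins and the cytoskeleton, and the 5 cell division genes stay between -0.89 and -0.50.

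Secreted and matrix proteins formed the largest role, with 13 genes, washout minus control levels of -1.57 to -0.55 and a median of -0.86. Cpa6, a secreted carboxypeptidase, had 6.46, 6.49 and 6.81 in control, 6.07, 6.18 and 6.00 at B/B 1 h and 5.03, 5.08 and 4.93 in washout. Ogn, the small leucine-rich proteoglycan osteoglycin, had 7.34, 7.40 and 7.32 in control, 6.52, 6.75 and 6.77 at B/B 1 h and 5.81, 5.74 and 6.07 in washout. Both were separate on every array of every group, and the 1 h step of Ogn, -0.67, was the third largest. Ppbp, the precursor of the chemokine CXCL7, had 7.54, 7.53 and 7.61 in control, 7.05, 7.12 and 7.12 at B/B 1 h and 6.39, 6.30 and 6.24 in washout. Masp1, a protease of the lectin pathway of complement, was 2.11-fold lower in washout than in control. Loxl1, which cross-links elastin, stood at -0.20 at B/B 1 h and at -0.87 in washout, both against control. The matricellular proteins Ccn4 and Ccn5 stood at -1.02 and -0.86 in washout against control, and extracellular superoxide dismutase, Sod3, at -0.55 with 60.2% of that at 1 h. S100a7a (-0.78), endothelial lipase Lipg (-0.70), the neuropeptide Vip (-0.68), Metrnl (-0.67) and the integrin ligand Npnt (-0.63) were the others.

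The 10 plasma membrane and vesicle proteins had a median of -0.80 in washout against control. Slc1a3, the glutamate and aspartate transporter GLAST, had the lowest washout minus control level of the 98. It measured 7.67, 7.71 and 7.81 in control, 7.36, 7.44 and 7.30 at B/B 1 h and 6.05, 5.96 and 6.01 in washout, 3.30-fold below control. No arrays of different groups overlapped, and 20.9% of the difference was present at 1 h. Plpp1, a phosphatase of lipid phosphates, had 10.46, 10.47 and 10.49 in control, 10.17 on each B/B 1 h array and 9.52, 9.55 and 9.50 in washout. Gria3, an AMPA receptor subunit, stood at -0.999 in washout against control, and the caveolar coat protein Cavin4 at -0.85. Ptchd4 (-0.76), the interferon-induced Ifitm2 (-0.98), the secretory carrier Scamp5 (-0.61), Plscr2 (-0.60), the clathrin adaptor subunit Ap1s1 (-0.56) and Cd209a (-0.44) made up the rest. In Ifitm2 the B/B 1 h arrays, at 4.84, 5.49 and 5.44, overlapped those of control at 5.78, 5.82 and 5.40.

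Actin and tubulin genes numbered 7 and had a median of -0.69 in washout against control. Myl9, a regulatory light chain of smooth muscle and nonmuscle myosin, had 9.88, 9.79 and 9.77 in control, 9.49, 9.62 and 9.58 at B/B 1 h and 8.09, 8.18 and 8.23 in washout. Its step over washout, -1.39, far exceeded that at 1 h, -0.26. Acta1, the skeletal muscle actin, stood at -0.82 in washout against control, the LIM protein Csrp1 at -0.62 and profilin 2, Pfn2, at -0.49. Tbcc, a tubulin folding cofactor, had 67.8% of its difference at 1 h. Tuba1b, an alpha-tubulin, had 7.04, 6.62 and 6.86 in control, 5.82, 6.75 and 6.56 at B/B 1 h and 5.61, 5.41 and 5.46 in washout. The first B/B 1 h array was far below the other two, which lay close to control. Tuba1a and Tuba1c, near-identical in sequence, had probe sets at control means of 9.86 and 9.32 and were called in no comparison by limma, and how probe sets divide these transcripts is uncertain. Myl12a stood at -0.26 and -0.41 in the 2 steps, while its second probe set, at a control mean of 6.36, gave 0.39 and -0.18, so the gene's direction at 1 h is uncertain.

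**Figure D4:**
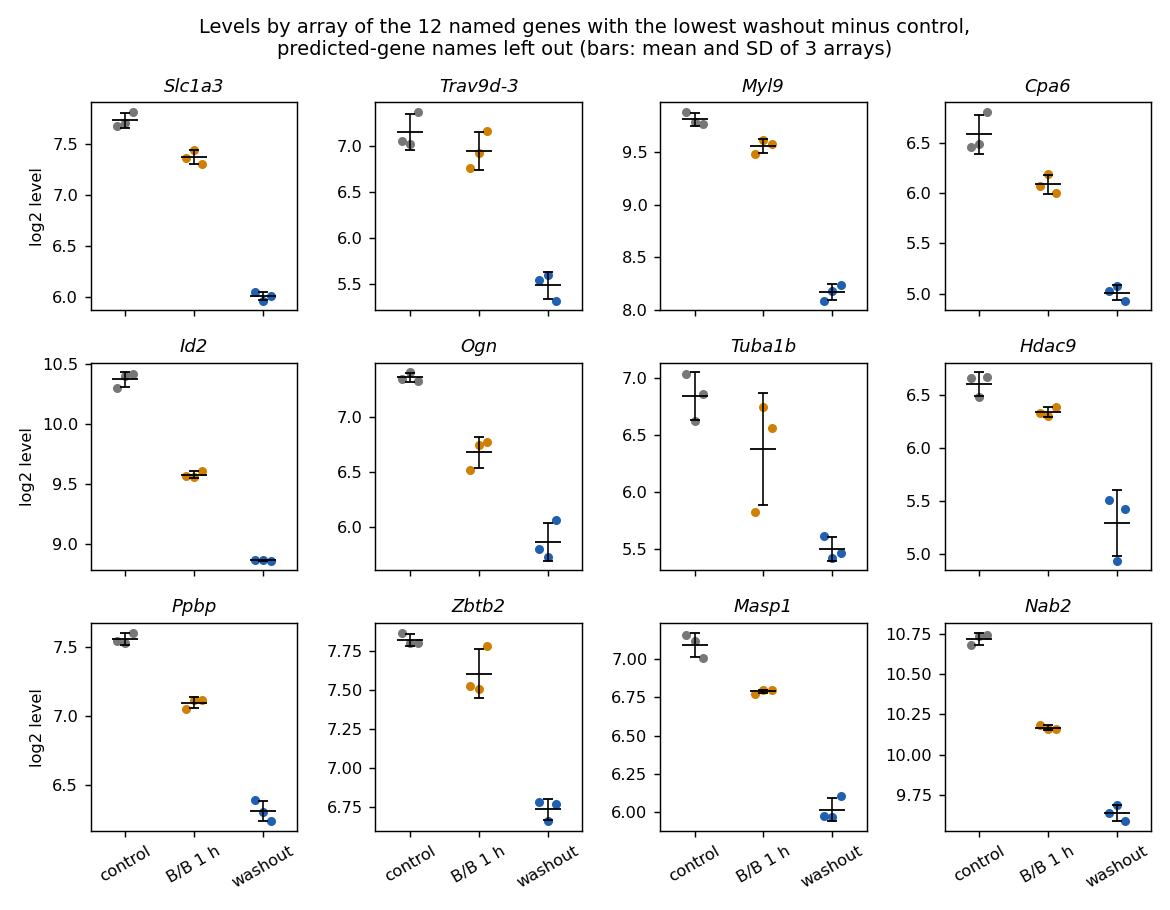
Log2 level (vertical axis, its own range in each panel) of the 12 genes with the lowest washout minus control level, predicted-gene names left out, by group; points are arrays, long bars means and whiskers the SD of 3 arrays. Slc1a3, Myl9, Cpa6, Id2, Ogn, Hdac9, Ppbp, Masp1 and Nab2 show 3 separate groups, while Trav9d-3 and Tuba1b overlap between control and B/B 1 h, and the third B/B 1 h array of Zbtb2 at 7.79 nearly reaches control.

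Proteins of folding and glycosylation in the secretory pathway were 6, all with the larger step over washout and with a median of -0.73 in washout against control. Fkbp11, a prolyl isomerase, had 7.66, 7.68 and 7.57 in control, 7.31, 7.25 and 7.39 at B/B 1 h and 6.62, 6.64 and 6.82 in washout. The glycosyltransferases Galnt13 and B3gnt9 stood at -0.88 and -0.83, the calcium-binding Rcn3 at -0.63, the disulfide-forming Qsox1 at -0.62 and B3galt1 at -0.42, the smallest of all 98. The 5 cell division genes also had the larger step over washout: Psrc1 of the spindle (-0.89 in washout against control), the centromere protein Cenpw (-0.78), Rangap1 (-0.58), the replication licensing factor Cdt1 (-0.53) and the kinase Melk (-0.50).

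Mitochondrial and metabolic genes (9) and genes of RNA synthesis, processing and translation (6) had medians of -0.56 and -0.50 in washout against control, the nearest to 0 of the 9 roles. Medians of 49.3% and 49.2% of the difference were present at 1 h. At whole differences this small the rule itself forces near-equal steps, so nothing about timing is read from these shares. Pccb, a subunit of propionyl-CoA carboxylase, had 8.02, 8.04 and 8.07 in control, 7.75, 7.75 and 7.77 at B/B 1 h and 7.36, 7.24 and 7.40 in washout. Ech1 (-0.57), Pecr (-0.66), Mrps21 (-0.56), Mrpl20 (-0.50), Gstm2 (-0.51), Dmac2l (-0.73), Mto1 (-0.43) and Atp5g1 (-0.44) were the others. Dis3, a catalytic subunit of the RNA exosome, had 10.08, 10.02 and 10.10 in control, 9.82, 9.80 and 9.82 at B/B 1 h and 9.59, 9.62 and 9.60 in washout, a small difference, and 2 of its B/B 1 h arrays had exactly equal values. Polr2l, a subunit shared by the nuclear RNA polymerases, was scattered, with 5.30, 5.83 and 6.04 at B/B 1 h and 5.34, 5.54 and 4.53 in washout. The U2 protein Snrpa1 (-0.52), Mcts1 (-0.48), Dhps (-0.46) and the tRNA methyltransferase Trdmt1 (-0.83) completed the group.

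No role was given to the other 21 genes. Neat1, the long noncoding RNA that builds paraspeckles, was the brightest of the 98 in control, with 10.84, 11.17 and 11.21 there, 10.90, 10.55 and 10.92 at B/B 1 h and 10.002, 10.09 and 10.01 in washout. Control and B/B 1 h overlapped, and washout was below both. Hoatz, a cilium-associated gene, had 5.86, 5.75 and 6.02 in control, 4.80, 5.14 and 5.50 at B/B 1 h and 4.75, 5.03 and 4.77 in washout, so that most of its difference was present at 1 h and B/B 1 h overlapped washout. Tgm2, a transglutaminase, stood at -0.43 in washout against control. Trav9d-3 is a T-cell receptor V segment with near-identical copies; its levels were 7.05, 7.02 and 7.37 in control, 6.75, 6.92 and 7.16 at B/B 1 h and 5.54, 5.60 and 5.32 in washout. Cd3e and Cd3d, T-cell markers, had control means below 5, and 4 other probe sets of Trav9d-3 had control means below 5 too. With its probe sets averaged the B/B 1 h minus control level of Trav9d-3 was 0.0015, so its place among these genes rests on 1 probe set. The rest ran from -1.10 (Gm2115) to -0.43 (2410002F23Rik) in washout against control. They were 9230114K14Rik (-0.93), Klhdc8a (-0.92), 2700038G22Rik (-0.80), Serf2 (-0.77), Fndc10 (-0.71), Ehbp1l1 (-0.66), Ankrd13a (-0.66), Fyb2 (-0.65), the DNA repair gene Mgmt (-0.62), Apmap (-0.56), Ier5l (-0.54), Smim4 (-0.52), the autophagy gene Atg10 (-0.50), Sertad4 (-0.43) and the histone gene H4f16 (-0.72), whose near-identical copies make its probe set uncertain.

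Several members lay close to the limits of the rule. Trav9d-3 at -0.20005, B3galt1 at -0.202 and Ptchd4 at -0.202 were just inside the limit on B/B 1 h minus control, and Ms4a4d at -0.1999, Tcf19 at -0.199 and Hadhb at -0.199 were just outside it. On washout minus B/B 1 h, Mto1 at -0.201, Cd209a at -0.212 and Dis3 at -0.213 were just inside, and Mccc2 at -0.194, Cenpb at -0.192 and Mafk at -0.189 just outside. The median standard error of a difference in the fit was 0.0636, so members this close to a limit are not separated from genes beyond it. Without each array in turn, 49 of the 98 met the rule every time, and 45 did so under 2 other normalizations as well, among them Slc1a3, Myl9, Id2, Ogn, Nab2, Gadd45b and Socs3.

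Relatives of the leading genes, picked after the values were seen, were compared in the same fit, in which 1.01% of all genes were called higher at B/B 1 h than in control, 16.6% higher in washout than at B/B 1 h and 14.5% higher in washout than in control. Over 18 families 55 such genes were measured, and the EGR factors, which Nab2 binds but which are not its relatives, were counted as a family. At 1 h 4 of the 55 fell and 4 rose (7.27% each), and over washout 20 fell (36.4%) and 11 rose (20%). Those that fell in both steps include Actg2, which met the rule and was left out by name. Those that rose at 1 h include Egr1 and Egr2. Id3 fell at B/B 1 h by 0.50 on the log2 scale (SE 0.07, limma adjusted p = 0.00538) and was lower by a further 0.10 that did not pass (adjusted p = 0.335). Its 1 h step was near that of Id1, and the second step of Id2 and Id1 had no counterpart that passed in Id3. Id4 went the other way over washout, with a rise of 0.64 (limma adjusted p = 0.0017) after -0.28 at 1 h that did not pass (adjusted p = 0.216), and its washout minus control level was 0.35 (adjusted p = 0.0414, at most 0.145 when 1 array was left out). Smad7 and Pmepa1, feedback genes of BMP and TGF-beta signalling also picked after their values were seen, turned back. Smad7 fell by 0.50 at 1 h (limma adjusted p = 0.000838) and rose by 0.65 over washout (adjusted p = 1.21e-05). Pmepa1 fell by 0.36 (limma adjusted p = 0.00203) and rose by 0.65 (adjusted p = 3.5e-06). Of 3 EGR factors, the kind that Nab2 binds, all fell over washout and 2 rose before that. Egr1 rose by 0.95 at 1 h (limma adjusted p = 9.75e-06) and fell by 3.50 over washout (adjusted p = 3.41e-10), and Egr2 rose by 0.76 (adjusted p = 2.23e-05) and fell by 2.37 (adjusted p = 1.94e-09). Egr3 stood at -0.02 at 1 h (limma adjusted p = 0.898) and fell by 1.38 over washout (adjusted p = 1.14e-06). Nab1 rose by 0.30 over washout (SE 0.05, limma adjusted p = 0.0011). Egr2 had the same value on all 3 control arrays, and Egr1 and Nab1 in control and Id3 and Acta2 at B/B 1 h had it on 2, so that the SEs and adjusted p of these genes rest on spreads that are no measure of error. Equal values on arrays of different groups were not counted.

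Other families are given with the same limit, as relatives are by definition not members. Gadd45g fell by 1.496 over washout (limma adjusted p = 9.28e-07) after a difference of 0.06 at 1 h, where Gadd45b had most of its own. Loxl3 and Lox fell by 1.16 and 0.45 over washout (limma adjusted p = 3.41e-07 and 2.51e-05) with -0.0074 and -0.05 at 1 h, and Loxl4 fell by 0.47 (adjusted p = 4.13e-05) with -0.0088 at 1 h. Hdac5 and Hdac7, class IIa like Hdac9, fell by 0.67 and 0.51 over washout (limma adjusted p = 3.45e-06 and 1.06e-05) with 0.08 and 0.03 at 1 h. Hdac4, of the same class, stood at 0.04 over washout (limma adjusted p = 0.641) and at 0.08 in washout against control (adjusted p = 0.27). Hdac4 had exactly equal values, 8.78, on the third array of all 3 groups, so these adjusted p are uncertain. Of 7 relatives of Socs3, Socs4 and Socs5 fell by 0.26 and 0.28 at 1 h (limma adjusted p = 0.0358 and 0.0145), calls that were lost under 9 and 2 of 15 alternatives, and rose by 0.44 and 0.39 over washout (adjusted p = 0.000204 and 0.000159). Socs7 rose by 0.44 and Socs1 fell by 0.25 over washout (limma adjusted p = 0.000512 and 0.00848). Acta2, smooth muscle actin, fell by 0.51 over washout (limma adjusted p = 1.08e-05) after -0.15 at 1 h that did not pass (adjusted p = 0.0794). Cxcl5, a chemokine gene related to Ppbp, fell by 1.04 over washout (limma adjusted p = 3.03e-05) with 0.01 at 1 h. Ccn1, of the family of Ccn4 and Ccn5, rose by 0.57 at 1 h and fell by 0.26 over washout (limma adjusted p = 0.000114 and 0.00132). Plpp3 and Plpp2 rose by 1.23 and 0.28 over washout (limma adjusted p = 2.57e-06 and 0.000761), opposite to the washout step of Plpp1. Differences between a member and its relative were not tested.

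Of 25 lists of pathway genes (872 measured genes), 11 held at least 1 of the 98 and 15 of the 98 were on any. Shares called by limma among the other genes of a list are set beside those of all genes tested, which were 1.88% lower and 1.01% higher at 1 h, and 12% lower and 16.6% higher over washout. These shares of all genes are not matched for level. They also include the 98, while the members of a list were taken out before its shares were counted. That lowers the share lower of a list with members, so the 2 kinds of share are not like for like. Of 22180 genes tested, 11009 met the conditions on symbol and control level. Most of the other genes of the lists below had control means of 5 or above, as did 30 of 34 for TGF-beta and BMP signalling. Among 34 other genes of TGF-beta and BMP signalling, 4 fell (11.8%) and 1 rose (2.94%) at 1 h. Over washout 4 of them fell (11.8%), near the share of all genes, and 15 rose (44.1%), above it. Among 30 other actin and contractile genes, only Actg2, which met the rule and was left out, fell at 1 h (3.33%) and 0 rose, and 16 fell (53.3%) and 3 rose (10%) over washout, with a median of -0.21 for the step over washout. Cnn2 and Tagln fell by 0.93 and 0.54 over washout (limma adjusted p = 1.24e-06 and 5.35e-05). Among 54 other matrix genes, 1 fell (1.85%, near the share of all genes) and 3 rose (5.56%) at 1 h, and 24 fell (44.4%) and 6 rose (11.1%) over washout. The lists of Kruppel-like and SP factors (15 others) had 1 lower (Klf10, left out by the rule; 6.67%) and 3 higher (20%) at 1 h, and 6 lower (40%) and 3 higher (20%) over washout. One of those higher at 1 h was Klf6, which rose by 0.85 (limma adjusted p = 5.62e-06) and then fell by 1.20 over washout (adjusted p = 7.81e-08). G1 and Myc network genes (30 others) had 3 lower (10%) and 2 higher (6.67%) at 1 h and 10 lower (33.3%) and 7 higher (23.3%) over washout. The glucocorticoid list holds Klf9 and Tgm2. Its 12 others had 0 lower and 4 higher (33.3%) at 1 h, and 2 lower (16.7%) and 4 higher (33.3%) over washout. Circadian clock genes (18, no member) had 3 lower (16.7%) and 0 higher at 1 h, and 10 lower (55.6%) and 3 higher (16.7%) over washout. Further lists with members are not described here. These shares are descriptions with no test. Over all genes tested the medians of the 2 steps were 0.00 and -0.02.

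The cell line was checked against its markers. Of 14 fibroblast markers 13 had control means of 5 or above, all but Postn, and 9 fell and 1 rose over washout by limma, while 0 passed at 1 h. Their mean level was 9.76 to 9.78 on control arrays, 9.77 to 9.79 on B/B 1 h arrays and 9.32 to 9.37 on washout arrays. Leukocyte markers (12) averaged 4.79 to 4.81, 4.94 to 4.97 and 4.88 to 4.91 in the same order, with 5 at 5 or above in control, and 4 rose at 1 h. Of 11 epithelial and 11 endothelial markers, 4 and 2 reached 5 in control. Epcam, Pecam1 and Ptprc were below 5. The part of these markers in the members' values was not tested. In a bulk sample fewer cells of a type and less RNA per cell cannot be told apart.

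All 98 genes had an entry in the RefSeq gene table of GRCm38.p6, where 94 are protein-coding, 3 are long noncoding RNAs (Neat1, 9230114K14Rik and 2700038G22Rik) and 1 is the V segment. The gene span had a median of 13653 bases, against 22208 over all genes that met the conditions on symbol and control level and 16266 over all genes tested. It was 16006.5 for the 508 genes lower at 1 h and higher over washout, and 23237 for 1249 genes within 0.1 of control at 1 h and lower over washout. A span under 5000 bases was found in 23 of the 98 (23.5%), against 13.95% of the genes that met the conditions and 24.5% of all genes tested, and 16.9% and 13.6% of the sets of 508 and 1249. The share of short spans was thus above that of the genes that met the conditions and near that of all genes tested. The control level itself was near that of the whole, with medians of 7.90 and 7.86, while the SD among control arrays had a median of 0.078, against 0.053. Among B/B 1 h arrays the median SD was 0.055 against 0.061, and among washout arrays 0.076 against 0.053. The rule uses the means of these same arrays, so the spreads are not independent of it.

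A promoter entry was found for 79 of the 98, and their GC content had a median of 59.7%, against 61.3% over all 8823 promoters of genes that met the conditions on symbol and control level and 56.3% over the 16918 of all genes tested. TATAAA occurred in 12 of the 79 (15.2%), against 632 of 8823 (7.16%), 2180 of 16918 for all genes tested (12.9%), 5.31% of the genes lower at 1 h and higher over washout and 6.83% of those lower only over washout. Its holders were Slc1a3, Ogn, Hdac9, Ppbp, Gadd45b, Ifitm2, Cavin4, Acta1, Vip, Rasgrp3, Cd209a and 2410002F23Rik. The members' share was thus close to that of all genes tested and above those of the other sets. Against the 8823 promoters, CCAAT stood at 39.2% against 38.5%, GGGCGG at 67.1% against 65.9% (46.8% over all genes tested), CACGTG at 11.4% against 10.6% and CATTCC at 19.0% against 12.01%. TGACGTCA was in 2.53% against 3.35%, TGANTCA in 6.33% against 4.86%, TGACG in 27.8% against 32.2% and TGGGAA in 19.0% against 22.8%. GTCTAGAC was in 0 of 79, against 0.227%. These shares are descriptions of 1 window per gene with no test.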

How the data were processed

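Total RNA was labelled with biotin by the Affymetrix protocol and read on 9 one-colour arrays, per the labels. The deposited values are log2 probe set levels, already normalized by the authors with Partek 6.6, per the submitters' processing notes; the summary and normalization methods are not given in the sources used here, and base 2 was inferred from the range of the values. Array medians lay between 4.60 and 4.68. No detection calls were used, and 3 arrays a group limit the precision. Of 41345 probe sets, 23521 carried 1 symbol, 1814 several and 16010 none here. The probe set with the highest mean stood for each of 22180 genes, of which 1082 had more than 1, and the rule was applied after that choice. Groups came from the treatment label. Differences were fitted with limma 3.58.1 (statmod 1.5.0, R 4.3.3) as 3 group means over 9 arrays, with moderated tests at an adjusted p under 0.05 (Benjamini-Hochberg, 6 residual and 3.38 prior degrees of freedom), and the code was tested on simulated data. Both steps chose the members, so no p-value of a member is given.

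The members, gene lists, roles and relatives were chosen with earlier results of these data known. Genes named were the 12 members with the lowest washout minus control level, the 6 lowest in each step, up to 3 members of each list and the 3 genes on either side of each limit, predicted-gene names left out. Members beyond these, and all relatives, were named after their values were seen. Alternatives were quantile normalization, centred array medians, other limits, group medians, averaged probe sets, the lowest 30% of genes left out, a variance trend, a robust prior, omission of each array in turn, only 2 groups and an adjusted p under 0.01.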

Additional observations from a re-analysis of the deposited data

How the results depend on the processing

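The number of genes that met the rule was 98 and depended most on the size of the falls, with 516 at 0.1 and 23 at 0.3. It was 68 after quantile normalization, of which 60 were among the 98, 109 with array medians centred (85 of the 98), 81 to 125 without each array in turn, and 120 when the conditions were put to every probe set first, a reading added after the data were seen. Of the 98, 45 were called lower at B/B 1 h than in control; 27 were after quantile normalization, 25 with only the 2 groups in the fit, 10 at adjusted p under 0.01 and 12 (without control replicate 3) to 28 (without B/B 1 h replicate 3 or washout replicate 3) without each array in turn. Fewer arrays leave fewer degrees of freedom, and the cause of the other changes was not tested. Counts called lower stayed between 70 and 90 for washout against B/B 1 h and between 94 and 98 for washout against control under all 17 alternatives. Of 744 recomputed differences of 31 named genes, 1 turned sign: B/B 1 h minus control of Trav9d-3, 0.00148 with probe sets averaged. Calls of the relatives named held under the 15 alternatives run for them, except Socs4 and Socs5 at 1 h and Id4 in washout against control. No paired analysis was possible because the labels give no replicate numbers; those used here only name arrays in deposit order.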
